A study of Rattus norvegicus with 12 samples.

Results

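Gene expression in whole urinary bladder was compared between rats whose spinal cord had been transected 14 days earlier and uninjured rats. The comparison holds the 6 libraries whose titles give day 14 (3 libraries) or normal control (3 libraries), of 12 in the series, and every gene in the count table. That table lists 40154 genes, and 17687 of them passed the filter on low counts. The animals were Wistar rats, an outbred laboratory strain, aged 10 to 12 weeks and female per the series text. In the day-14 group the cord was transected with a scalpel at thoracic segment 10. The control group carried no injury, with a sham operation, if any, not given in the sources used here. The other 6 libraries come from bladders 7 and 28 days after the same injury, 3 each, and are used here to place day 14 in time. No label says which rat gave which library, so the p-values below measure the spread between these libraries only.

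The bladder wall consists of a urothelium, which seals the wall against urine, a layer of connective tissue with vessels and nerve fibres, and the detrusor, the smooth muscle that empties the organ. Emptying depends on a reflex that runs through the spinal cord. A complete cut above the sacral cord first leaves a flaccid, overfilled bladder, and in the following weeks a spinal reflex returns that contracts the detrusor against a closed sphincter. Bladders in this state are known for stretch of the wall, inflammation and remodelling of matrix and muscle.

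Total counts were 26275314 to 28663415 in the day-14 libraries and 27044344 to 28412801 in the controls. Levels are given as CPM, a gene's counts scaled to the total of its library after TMM normalization, always in the order of replicates 1, 2 and 3. Changes are log2 fold changes, day 14 minus control, ± standard error, and a gene is said to be called, or to have risen or fallen, at an adjusted p under 0.05 from the quasi-likelihood test of edgeR with Benjamini-Hochberg adjustment over all genes tested. Mitochondrially encoded transcripts made up 5.91% ± 0.528 of counts at day 14 and 6.61% ± 0.455 in the controls (SD, n = 3 each, exact permutation p = 0.2, two-sided). The 10 most abundant genes of each library took 8.76% ± 0.657 against 10.3% ± 0.125 (exact permutation p = 0.1, the smallest that 3 against 3 can give). Haemoglobin transcripts, which come from blood, were 0.0579% ± 0.0207 of counts at day 14 and 0.160% ± 0.114 in the controls. Smooth muscle and urothelial transcripts were abundant in all 6 libraries. The 30 smooth muscle genes summed to 41704 to 44466 CPM in the controls and 37642 to 47241 CPM at day 14. The 31 listed urothelial genes in the count table summed to 12482 to 13116 CPM in the controls and 12134 to 15360.0 CPM at day 14. Of the 17 listed markers of other pelvic organs and glands, 16 were in the count table and 7 were tested. The 16 together came to 21.1 to 33.2 CPM in the controls and 15 to 21.0 CPM at day 14.

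The day-14 libraries varied more among themselves than the controls did, with a median SD of log2 CPM of 0.231 against 0.163. On the first principal component of the 6 libraries, which held 43.8% of the variance, the controls lay between −42.3 and −37.7, while the day-14 libraries lay at 19.1, 29.4 and 69.3. The second, with 18.8%, set day-14 replicate 1 (−59.4) apart from replicates 2 (26.5) and 3 (15.1). Neutrophil genes were highest in replicate 3, interferon genes were lowest in replicate 1, and mesothelial genes were low in replicate 1, as the values below show. In whole tissue, fewer cells of a type and less RNA per cell cannot be told apart.

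At day 14, 433 genes were called, which is 2.45% of those tested. Of these, 257 had risen (1.45%) and 176 had fallen (0.995%), and 330 of the 433 differed by at least 1 on the log2 scale. Counts of called genes in the lists below are to be read beside these shares of risen and fallen genes. Counts by the unadjusted p are to be read beside 9.71% higher and 7.97% lower among all genes tested. The rises included genes of macrophages, neutrophils, mast cells and the interferon response, and the largest named one was the bone morphogenetic protein antagonist Grem1. The falls included secreted regulators of insulin-like growth factors, genes of Schwann cells and enzymes of xenobiotic metabolism. By gene type, 244 of the risen and 167 of the fallen genes are protein-coding in the deposited annotation, and 9 and 4 are annotated as lncRNA. The number of calls depended on the libraries: it was 38, 16 and 22 without control replicate 1, 2 or 3, and 504, 380 and 122 without day-14 replicate 1, 2 or 3. Only 15 of the 433 genes stayed called in all 6 of these fits: Aldh3a1, Grem1, Igfbp3, Igfbp5, Itga4, Laptm5, Lgi2, LOC108351878, LOC689268, Mpeg1, Pappa2, PCOLCE2, Serpinb8, Spon2 and Unc5c. All 433 kept their direction and an unadjusted p under 0.05 in each. This is no separate check, since the genes were chosen in a fit that held the same libraries. Fitted on the 2 groups alone the comparison gave 269 rises and 340 falls.

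**Figure D1:**
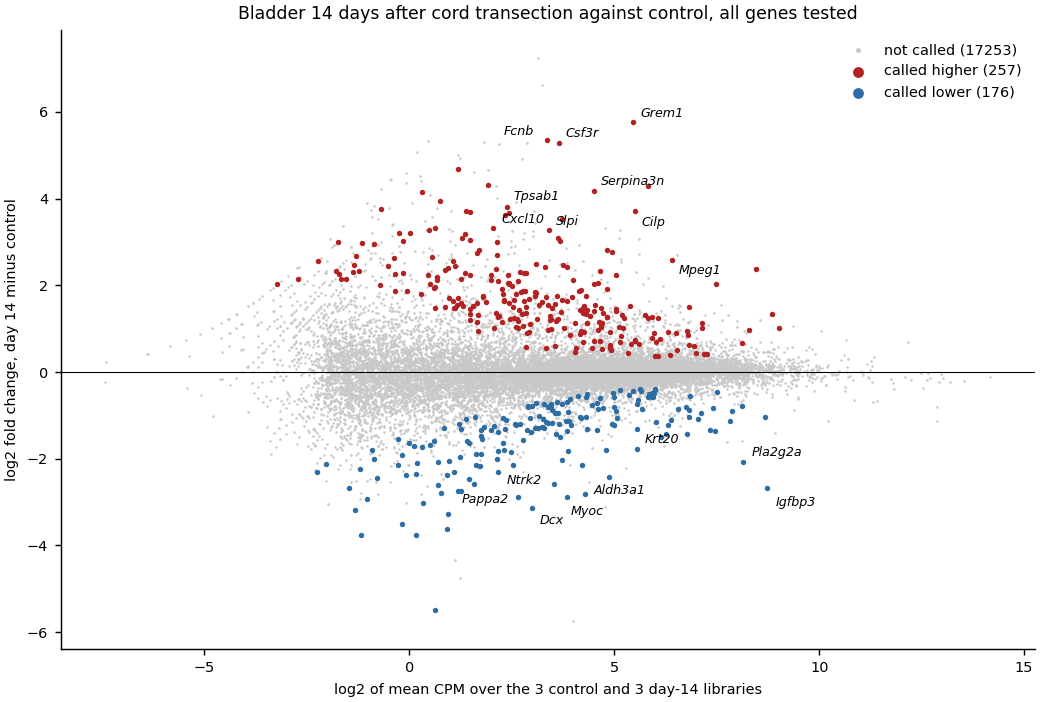
Each point is 1 gene tested, with the log2 of its mean CPM over the 3 control and 3 day-14 libraries on the horizontal axis and its log2 fold change (day 14 minus control) on the vertical axis; genes at 0 in all 6 libraries are not drawn. Red points mark the 257 genes that rose and blue points the 176 that fell, with Grem1 at 5.76 and Dcx at −3.14 among the labelled genes.

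Among called genes with a symbol, a mean of at least 5 CPM, a change of at least 1 on the log2 scale and every day-14 library outside the control range, 171 genes qualified (114 higher, 57 lower), and the 10 largest rises and 9 of the 10 largest falls are given next. The lack of overlap with the controls in genes named this way, here and below, was set by that rule. List members named for their small p were chosen on the same values, so their lack of overlap is no separate result. Its share over all genes tested is not given here. Grem1 (chromosome 3, 105203309 to 105214989 on rn6), a secreted antagonist of bone morphogenetic proteins made by fibroblasts and smooth muscle, stood at 1.18, 1.57 and 1.86 CPM in the controls and 31.0, 140.0 and 89.7 CPM at day 14. Every day-14 library was above every control, with replicate 1 the lowest of the 3 (5.76 ± 0.61, adjusted p = 0.00443). Serpina3n (chromosome 6, 128073344 to 128080878), a secreted inhibitor of serine proteases that is induced in inflammation, stood at 1.74, 2.92 and 2.29 CPM in the controls and 13.5, 77.4 and 38.8 CPM at day 14. Cilp (chromosome 8, 70760922 to 70775891), a matrix protein of cartilage and fibrotic tissue, stood at 5.05, 7.03 and 7.04 CPM in the controls and 15.2, 157 and 79.3 CPM at day 14. For both, replicate 1 was the nearest to the controls and replicate 2 the highest, with changes of 4.19 ± 0.55, adjusted p = 0.00804, and 3.71 ± 0.86, adjusted p = 0.0490. Slpi (chromosome 3, 160799979 to 160802228), a secreted leukocyte protease inhibitor of epithelia, stood at 1.67, 2.33 and 1.79 CPM in the controls and 12.7, 11.9 and 33.1 CPM at day 14. Replicate 3 was the highest and no library overlapped the controls (3.27 ± 0.60, adjusted p = 0.0233). Lilrb4 (chromosome 1, 73393854 to 73399448), an inhibitory receptor of myeloid cells whose near-identical relatives make its count uncertain, stood at 0.696, 0.474 and 0.929 CPM in the controls and 6.88, 3.03 and 18.2 CPM at day 14 (3.61 ± 0.63, adjusted p = 0.0212). The calls of Serpina3n, Cilp, Slpi and Lilrb4 were lost whichever control was left out (adjusted p 0.0502 to 0.181). Among the day-14 libraries, leaving out 1 ended the calls of Cilp (0.103) without day-14 replicate 2, and of Cilp (0.119) and Slpi (0.0701) without day-14 replicate 3 (adjusted p in parentheses). Log2 fold changes moved to 3.46 for Serpina3n and 2.88 for Cilp without day-14 replicate 2 and 2.64 for Slpi and 2.71 for Lilrb4 without day-14 replicate 3. The other 5 of the 10 largest rises, Fcnb, Csf3r, Slfn4, Tpsab1 and Cxcl10, are described with their cell types below.

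Of the insulin-like growth factor axis 3 genes fell. Igfbp3 (chromosome 14, 87457647 to 87465374), the main carrier of insulin-like growth factors in plasma, stood at 858, 656 and 671 CPM in the controls and 137, 60.1 and 146 CPM at day 14. It was the most abundant of the 10 largest falls, and day-14 replicate 2 was the lowest library (−2.67 ± 0.27, adjusted p = 0.00407). Igfbp5 (chromosome 9, 80154230 to 80166813), another binding protein of the family, stood at 244, 221 and 232 CPM in the controls and 107, 72.6 and 94.9 CPM at day 14 (−1.35 ± 0.17, adjusted p = 0.00748). Pappa2 (chromosome 13, 76389150 to 76660248), a metalloproteinase that cleaves both of these binding proteins, stood at 10.5, 11 and 11.5 CPM in the controls and 1.64, 1.55 and 1.10 CPM at day 14 (−2.89 ± 0.34, adjusted p = 0.00718). As the rule requires, in none of the 3 genes did a day-14 library reach the control range. Each of the 3 stayed called whichever library was left out. The growth factors themselves were not called. Igf1 stood at 114, 177 and 149 CPM in the controls and 89.3, 123 and 131 CPM at day 14 (−0.36 ± 0.37, adjusted p = 0.679), Igf2 at 20.1, 27.8 and 18.6 CPM in the controls and 10.9, 9.15 and 13.8 CPM at day 14 (−0.97 ± 0.29, adjusted p = 0.11) and the receptor Igf1r at 194, 205 and 183 CPM in the controls and 234, 183 and 206 CPM at day 14 (0.10 ± 0.15, adjusted p = 0.807). Of the other binding proteins, looked up after the values above had been seen, Igfbp2, Igfbp4, Igfbp6 and Igfbp7 had log2 fold changes of 0.37, 0.41, 0.36 and −0.17, with adjusted p of 0.522, 0.390, 0.599 and 0.661. In the whole list of insulin-like, epidermal, fibroblast and platelet-derived growth factors and their receptors, 1 of 34 tested genes rose and 2 fell (1.45% and 0.995% of all genes), with a median of 0.10 against 0.00244 over all genes. The 1 that rose was Met, the receptor of hepatocyte growth factor, at 86.7, 82.0 and 69.6 CPM in the controls and 104, 146 and 178 CPM at day 14 (0.85 ± 0.17, adjusted p = 0.0342). Leaving out any 1 control ended the call of Met (adjusted p 0.102 to 0.134). It was also lost without day-14 replicate 2 (adjusted p = 0.0627) and without day-14 replicate 3 (adjusted p = 0.106).

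Other large falls came from several cell types. Dcx (chromosome X, 115098675 to 115175515), a microtubule-binding protein known from migrating neurons, stood at 15.5, 14.1 and 13.7 CPM in the controls and 1.67, 0.481 and 2.59 CPM at day 14. The controls lay close together and all day-14 libraries were far below them (−3.14 ± 0.62, adjusted p = 0.0299). Myoc (chromosome 13, 80517531 to 80527928), the secreted glycoprotein myocilin, stood at 19.2, 24.2 and 33.2 CPM in the controls and 3.42, 2.75 and 4.07 CPM at day 14 (−2.88 ± 0.53, adjusted p = 0.0233). Aldh3a1 (chromosome 10, 47490168 to 47499855), an aldehyde dehydrogenase of epithelia, stood at 41.7, 29.3 and 31.5 CPM in the controls and 5.13, 5.91 and 3.36 CPM at day 14 (−2.81 ± 0.38, adjusted p = 0.00947). These 2 also had no overlap, as the rule requires, and Aldh3a1 stayed called whichever library was left out. Ces1f (chromosome 19, 15081117 to 15126629), a carboxylesterase, stood at 29.1, 28.1 and 33.7 CPM in the controls and 5.79, 5.33 and 9.21 CPM at day 14 (−2.15 ± 0.40, adjusted p = 0.0238). Col28a1 (chromosome 4, 34048074 to 34198558), a collagen of the basement membrane around Schwann cells, stood at 7.76, 8.89 and 11.8 CPM in the controls and 2.58, 1.55 and 2.16 CPM at day 14 (−2.14 ± 0.34, adjusted p = 0.0166). In both every day-14 library lay well below the lowest control. Pla2g2a (chromosome 5, 157282650 to 157285295), a secreted phospholipase, stood at 389, 571 and 409.7 CPM in the controls and 74.9, 56.3 and 196 CPM at day 14 (−2.07 ± 0.48, adjusted p = 0.0489), and day-14 replicate 3 was nearest to the controls. Dcx, Myoc, Ces1f and Pla2g2a were no longer called with 1 control fewer, whichever it was (adjusted p 0.0770 to 0.160). Col28a1 lost its call without control replicate 2 or 3 (adjusted p up to 0.0737). Without day-14 replicate 1 the calls of Dcx (0.0537) and Pla2g2a (0.103) were lost. Without day-14 replicate 2 those of Myoc (0.0535), Ces1f (0.0559) and Pla2g2a (0.103) were lost. Without day-14 replicate 3 those of Dcx (0.0525) and Myoc (0.0735) were lost (adjusted p in parentheses). The log2 fold change of Pla2g2a was −1.85, −1.75 and −2.79 without day-14 replicate 1, 2 or 3, and it stayed called without replicate 3.

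Of the 10 smallest p-values under the same rule, 4 belonged to Grem1, Igfbp3, Pappa2 and Igfbp5, and the other 6 to genes given here. Mpeg1 (chromosome 1, 228724559 to 228729054), which encodes a pore-forming protein of macrophages, stood at 25.1, 24.7 and 21.9 CPM in the controls and 109, 156 and 169 CPM at day 14 (2.59 ± 0.16, adjusted p = 5.28e-05). Laptm5 (chromosome 5, 149015793 to 149069719), a lysosomal membrane protein of leukocytes, stood at 23.8, 21.9 and 27.7 CPM in the controls and 50.2, 43.9 and 53.6 CPM at day 14 (1.01 ± 0.12, adjusted p = 0.00718). Itga4 (chromosome 3, 66178745 to 66265547), the integrin alpha chain with which leukocytes bind vessel walls, stood at 8.46, 11.3 and 9.75 CPM in the controls and 29.0, 25.1 and 30.7 CPM at day 14 (1.52 ± 0.19, adjusted p = 0.00748). As the rule requires, no day-14 library overlapped the controls in these 3 leukocyte genes. Serpinb8 (chromosome 13, 27876662 to 27914038), an intracellular protease inhibitor, stood at 47.3, 36.0 and 36.1 CPM in the controls and 88.6, 88.9 and 104 CPM at day 14 (1.24 ± 0.15, adjusted p = 0.00718). The 2 of the 6 that fell were PCOLCE2 (chromosome 8, 103459219 to 103484557), an enhancer of procollagen processing, at 46.5, 39.1 and 44.5 CPM in the controls and 10.5, 12.3 and 14.4 CPM at day 14 (−1.80 ± 0.22, adjusted p = 0.00718), and Unc5c (chromosome 2, 247045813 to 247397483), a receptor for the axon guidance cue netrin, at 21.1, 19.5 and 17.1 CPM in the controls and 9.64, 9.01 and 7.83 CPM at day 14 (−1.12 ± 0.14, adjusted p = 0.00802). All 6 were called in each of the 6 fits with 1 library left out.

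**Figure D2:**
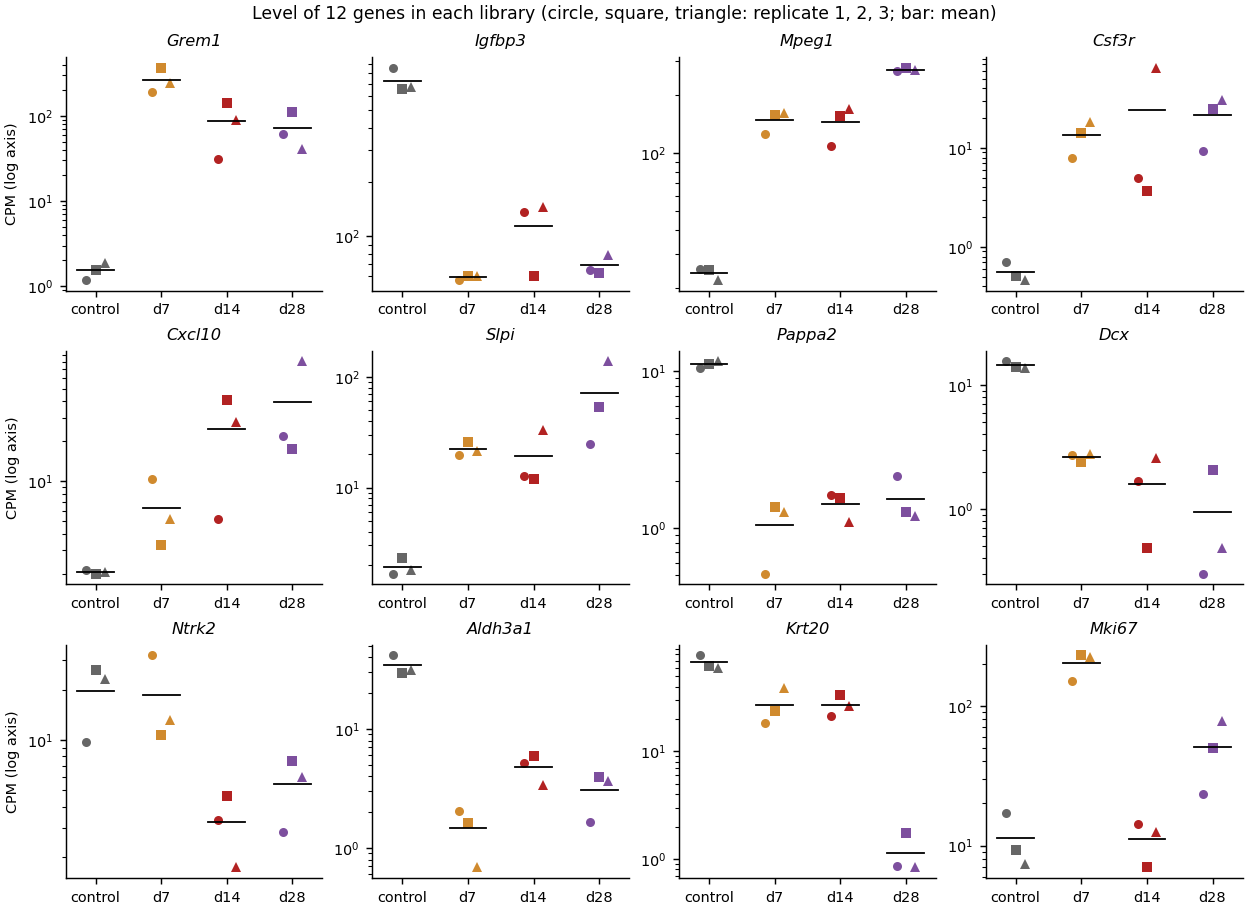
Each panel shows 1 gene, with CPM on a log axis for the 3 libraries of control, day 7 (d7), day 14 (d14) and day 28 (d28); circles, squares and triangles are replicates 1, 2 and 3 and bars are group means. Mpeg1, Pappa2 and Aldh3a1 had day-14 libraries close together, while Csf3r ranged from 3.64 to 64.7 CPM and Cxcl10 from 5.20 to 40.7 CPM at day 14.

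Neutrophil genes that were called had all risen, unevenly between the day-14 libraries. Of 24 listed genes 19 passed the filter, which a gene can pass through its high libraries alone, and 7 of them rose and none fell, with a median of 3.93. Over all 24 with no filter the median was 2.36. By the unadjusted p 16 of 19 were higher (9.71% of all genes tested). Summed over the list, these genes came to 131 to 146 CPM in the controls and 455 to 1527 CPM at day 14. In each of the 6 libraries most of that sum was Lyz2, given below, which macrophages also make and which is in the macrophage list too. The sum is therefore no measure of neutrophils alone. Csf3r (chromosome 5, 144031353 to 144051966), the receptor of granulocyte colony-stimulating factor, stood at 0.696, 0.510 and 0.464 CPM in the controls and 4.99, 3.64 and 64.7 CPM at day 14 (5.29 ± 1.10, adjusted p = 0.0353). Fcnb (chromosome 3, 6617816 to 6626193), a ficolin of myeloid cells, stood at 0.348, 0.364 and 0.572 CPM in the controls and 24.4, 1.17 and 35.0 CPM at day 14 (5.35 ± 1.11, adjusted p = 0.0349). Replicate 3 was far above the other 2 for Csf3r, whereas replicates 1 and 3 were high and replicate 2 low for Fcnb. Slfn4 (chromosome 10, 70411686 to 70435162), a myeloid gene of the Schlafen family that also responds to interferon, stood at 4.07, 6.05 and 6.25 CPM in the controls and 26.6, 152 and 145 CPM at day 14 (4.29 ± 0.70, adjusted p = 0.0166). Lyz2, the lysozyme of macrophages and neutrophils, stood at 121, 101 and 116 CPM in the controls and 331, 409 and 1018 CPM at day 14 (2.38 ± 0.49, adjusted p = 0.0341). Ncf1, a subunit of the phagocyte oxidase, stood at 4.59, 4.70 and 4.61 CPM in the controls and 15.8, 8.08 and 18.9 CPM at day 14 (1.61 ± 0.26, adjusted p = 0.0168). Textbook genes of neutrophil granules and cytosol, picked after their values had been seen, were at most 1.24 CPM in day-14 replicates 1 and 2 and were not called. S100a8 stood at 0.139, 0.146 and 0.0357 CPM in the controls and 0.182, 0.447 and 20.2 CPM at day 14 (adjusted p = 0.0992), S100a9 at 0.0348, 0.328 and 0 CPM in the controls and 0.218, 1.24 and 54.3 CPM at day 14 (adjusted p = 0.0774), Mmp8 at 0, 0.182 and 0.322 CPM in the controls and 0.473, 0.825 and 25.6 CPM at day 14 (adjusted p = 0.0865) and Mmp9 at 0, 0.146 and 0.0715 CPM in the controls and 0.218, 0.413 and 12.9 CPM at day 14 (adjusted p = 0.0853). Replicate 3 alone held them at a level well above the controls. The median member of the list stood 0.95, 0.85 and 3.36 above the controls in replicates 1, 2 and 3, in units of log2(CPM + 0.5). Without replicate 3 the median log2 fold change of the list was 1.54, and 4 of its genes were called, and with 1 control left out it had 0 or 1 call. With any 1 control left out, the calls of Csf3r, Fcnb, Slfn4, Lyz2 and Ncf1 were lost (adjusted p 0.0743 to 0.139). Also lost were the calls of Fcnb (0.0964) and Lyz2 (0.103) without day-14 replicate 3; parentheses give the adjusted p. The log2 fold change was 2.81 for Csf3r, 4.70 for Fcnb and 1.72 for Lyz2 without day-14 replicate 3.

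Macrophage and myeloid genes that were called had all risen. Of 24 tested, 10 rose (1.45% of all genes), none fell, and 21 were higher by the unadjusted p (9.71% of all genes), with a median of 1.17. The list summed to 756 to 892 CPM in the controls and 1339.7 to 2895 CPM at day 14. Tyrobp, a signalling adaptor of myeloid receptors, stood at 18.3, 18.2 and 16.2 CPM in the controls and 35.3, 39.6 and 69.0 CPM at day 14 (1.44 ± 0.24, adjusted p = 0.0166). Its partner Fcer1g, the shared chain of Fc receptors, stood at 18.7, 16.7 and 19 CPM in the controls and 31.2, 46.9 and 65.5 CPM at day 14 (1.40 ± 0.22, adjusted p = 0.0166). Ptprc, the pan-leukocyte phosphatase CD45, stood at 18.6, 20.8 and 25.2 CPM in the controls and 59.4, 42.6 and 85.2 CPM at day 14 (1.53 ± 0.25, adjusted p = 0.0166). In all 3 the groups did not overlap. Cd68, a lysosomal glycoprotein of macrophages, stood at 23.5, 17.7 and 21.6 CPM in the controls and 28.9, 58.1 and 70.3 CPM at day 14 (1.32 ± 0.27, adjusted p = 0.0319), with replicate 1 close to the controls. The integrin Itgam (1.47 ± 0.30, adjusted p = 0.0331) and the chemokine receptor Cx3cr1 (1.75 ± 0.32, adjusted p = 0.0233) rose as well, and Lyz2 and Mpeg1 belong with them. Without day-14 replicate 3 the list had 4 calls, and with any 1 control left out it had 1 call. The calls of Tyrobp, Fcer1g, Ptprc, Cd68, Itgam and Cx3cr1 were lost whichever control was left out (adjusted p 0.0727 to 0.132). Among the day-14 libraries, leaving out 1 ended the calls of Cd68 (0.0613) without day-14 replicate 2, and of Cd68 (0.107), Itgam (0.0849) and Cx3cr1 (0.0587) without day-14 replicate 3 (adjusted p in parentheses).

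Mast cell genes that were called had risen. Of 12 tested, 4 rose (1.45% of all genes) and none fell, with a median of 1.71. Tpsab1 (chromosome 10, 14701253 to 14703668), a tryptase of mast cell granules, stood at 0.453, 0.292 and 1.14 CPM in the controls and 4.44, 9.28 and 15.5 CPM at day 14 (3.81 ± 0.56, adjusted p = 0.0135). The related tryptase Tpsb2 stood at 2.61, 2.33 and 2.68 CPM in the controls and 8.59, 12.0 and 22.9 CPM at day 14 (2.48 ± 0.43, adjusted p = 0.0212). Reads of 50 bases may not separate these 2 near-identical genes, so their split is uncertain. Carboxypeptidase A3 (Cpa3) stood at 8.35, 10.6 and 16.4 CPM in the controls and 55.7, 26.6 and 50.9 CPM at day 14 (1.91 ± 0.41, adjusted p = 0.0377) and the chymase Cma1 at 2.96, 3.79 and 4.47 CPM in the controls and 10.7, 12.4 and 15.4 CPM at day 14 (1.76 ± 0.34, adjusted p = 0.0279). All 4 had no overlap with the controls, as the naming rule required for Tpsab1. The median member stood 1.94, 0.19 and 1.28 above the controls in replicates 1, 2 and 3, so that replicate 2 was near the control level, and the list summed to 330.2 to 375 CPM in the controls and 360.0 to 855 CPM at day 14. Without day-14 replicate 1 the median of the list was 0.91, and without replicate 3 it had 1 call. Leaving out any 1 control ended the calls of Tpsb2, Cpa3 and Cma1 (adjusted p 0.0753 to 0.146). Tpsab1 lost its call without control replicate 1 or 2 (adjusted p up to 0.0737). The call of Cpa3 (0.0671) was also lost without day-14 replicate 1. Without day-14 replicate 3 the calls of Tpsb2 (0.0541), Cpa3 (0.113) and Cma1 (0.0910) were lost, where parentheses give the adjusted p.

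**Figure D3:**
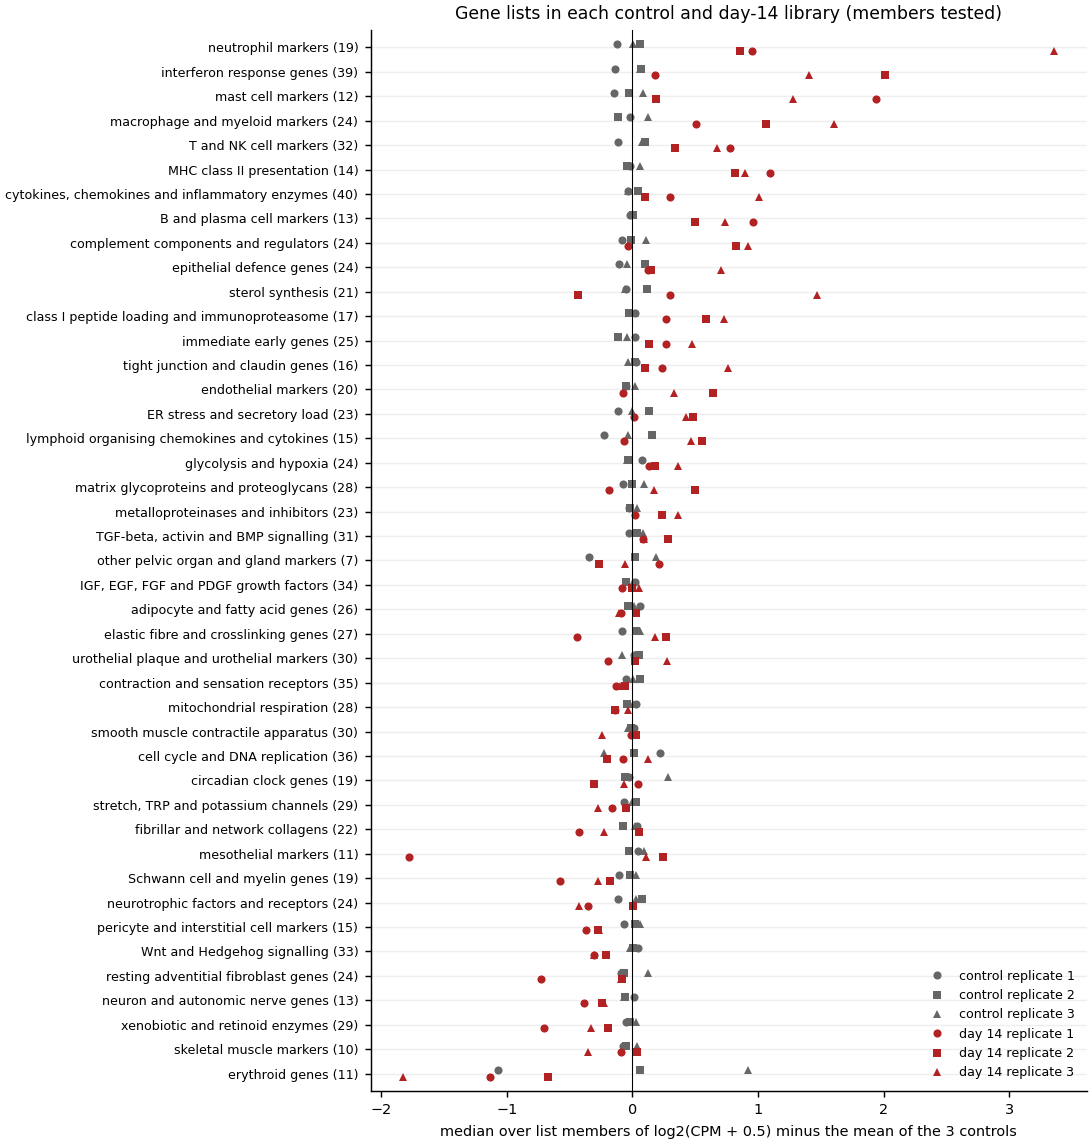
Each row is a gene list with the number of its genes tested, and each point is 1 library: the median over the list of log2(CPM + 0.5) minus the mean of the 3 controls, grey for controls and red for day 14. Neutrophil genes stand at 3.36 in day-14 replicate 3 against 0.95 and 0.85 in the other 2, and mesothelial genes at −1.78 in replicate 1.

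Interferon response genes were higher by the unadjusted p in 32 of 39 tested genes (9.71% of all genes), but only 6 were called. The list had a median of 1.89 and none of its genes fell. The 4 members with the smallest p are Irf8, Oas1a, Ifi44l and Cxcl10, and stretches of their promoters are shown for a motif that 18 of the list's matched genes hold. Interferon acts through factors that bind a repeated GAAA motif, written here as GAAANNGAAA and searched on both strands in the 250 bases before the gene start of the RefSeq promoter table (GRCr8). It was present in 3.41% of all 33469 promoters of that table, in 18 of the 29 interferon list genes that matched it by symbol (62.1%), in 15 of 190 matched risen genes (7.89%) and in 1 of 120 matched fallen genes (0.833%). Of the 17687 genes tested, 11590 matched, and 2.98% of those held the motif. The sequences below are 150 bases each, 5′ to 3′ on the gene's strand, with the motif in capitals (it reads TTTCNNTTTC where the match is on the other strand). Oas1a holds an overlapping pair of matches, Ifi44l 1 match on each strand and Cxcl10 1 match, whereas Irf8 holds none in its 250 bases.
Oas1a (chr12:41330316-41330465, + strand, GRCr8): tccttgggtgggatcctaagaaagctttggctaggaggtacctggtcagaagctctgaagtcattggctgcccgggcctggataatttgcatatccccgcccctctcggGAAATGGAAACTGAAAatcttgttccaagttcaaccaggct
Cxcl10 (chr14:15988816-15988965, + strand, GRCr8): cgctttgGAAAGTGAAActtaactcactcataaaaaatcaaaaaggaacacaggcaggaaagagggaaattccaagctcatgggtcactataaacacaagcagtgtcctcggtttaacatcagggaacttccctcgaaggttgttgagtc
Ifi44l (chr2:243328573-243328722, + strand, GRCr8): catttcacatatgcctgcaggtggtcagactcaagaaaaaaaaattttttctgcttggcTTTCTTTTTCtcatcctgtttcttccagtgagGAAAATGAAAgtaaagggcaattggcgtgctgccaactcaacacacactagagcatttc
Irf8 (chr19:65699134-65699283, + strand, GRCr8): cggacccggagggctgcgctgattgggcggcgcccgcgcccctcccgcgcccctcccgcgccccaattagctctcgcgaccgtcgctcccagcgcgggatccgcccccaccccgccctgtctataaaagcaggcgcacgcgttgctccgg
A match is a description of the sequence and not a shown binding site.

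Oas1a, which makes the activator of an antiviral ribonuclease and belongs to a family of near-identical copies, stood at 2.02, 3.53 and 2.14 CPM in the controls and 4.73, 41.4 and 20.5 CPM at day 14 (3.08 ± 0.70, adjusted p = 0.0448). Ifi44l, an interferon-induced gene, stood at 3.65, 5.03 and 5.07 CPM in the controls and 7.61, 18.8 and 13.8 CPM at day 14 (1.54 ± 0.35, adjusted p = 0.0448). Cxcl10, a chemokine that attracts T cells, stood at 2.12, 2.0 and 2.07 CPM in the controls and 5.20, 40.7 and 27.8 CPM at day 14 (3.53 ± 0.78, adjusted p = 0.0427). In all 3 the order of the day-14 libraries was the same, with replicate 2 highest and replicate 1 closest to the controls without overlapping them. The Cxcl10 gene overlaps Art3 on the opposite strand, which holds 80.9% of the counts of the pair and was not called (−0.42 ± 0.49, adjusted p = 0.723), and since the strand setting is not given, its count is uncertain. Irf8, a transcription factor of macrophages and dendritic cells, stood at 11.6, 10.8 and 11.1 CPM in the controls and 30.0, 27.3 and 27.8 CPM at day 14 (1.34 ± 0.26, adjusted p = 0.0283). Unlike the other 3 its day-14 libraries were nearly equal. The remaining 2 calls were the cytoplasmic RNA sensors Ifih1, at 22.6, 22.0 and 23.2 CPM in the controls and 28.5, 60.0 and 50.2 CPM at day 14 (1.03 ± 0.24, adjusted p = 0.0464), and Dhx58, at 2.33, 3.46 and 3.36 CPM in the controls and 3.75, 29.3 and 17.0 CPM at day 14 (2.42 ± 0.56, adjusted p = 0.0481). Over the list the median member stood 0.18, 2.01 and 1.41 above the controls in replicates 1, 2 and 3. Without day-14 replicate 1, 26 of the 39 were called with a median of 2.24, and without replicate 2 or 3 the calls numbered 1 and 0. No gene of the list was called by edgeR with any 1 control left out, and 27 to 29 then had an unadjusted p under 0.05, while DESeq2 called 27 on all libraries. Irf8, Oas1a, Ifi44l, Cxcl10, Ifih1 and Dhx58 were no longer called with 1 control fewer, whichever it was (adjusted p 0.103 to 0.180). Without day-14 replicate 2 the calls of Oas1a (0.0963), Ifi44l (0.104), Cxcl10 (0.0849), Ifih1 (0.108) and Dhx58 (0.111) were lost. Without day-14 replicate 3 those of Irf8 (0.0752), Oas1a (0.109), Ifi44l (0.126), Cxcl10 (0.116), Ifih1 (0.14) and Dhx58 (0.126) were lost (adjusted p in parentheses). The log2 fold change was 2.27 for Oas1a and 1.74 for Dhx58 without day-14 replicate 2. Genes of class I peptide loading and the immunoproteasome, which interferon induces, gave no call by edgeR among 17 tested and 2 by DESeq2, with a median of 0.49 and 7 higher by the unadjusted p. Their regulator Nlrc5 stood at 14.6, 13.7 and 13.8 CPM in the controls and 23.3, 31.5 and 31.1 CPM at day 14 (adjusted p = 0.0874).

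Called genes of antigen presentation and of lymphocytes had risen, apart from Cxcl12, those of lymphocytes at low levels. Of 14 class II presentation genes tested 4 rose and none fell, with a median of 1.11, and the list summed to 498 to 548 CPM in the controls and 1081 to 1284 CPM at day 14. Cd74, the invariant chain of class II molecules, stood at 268, 251 and 262 CPM in the controls and 716, 650.3 and 605 CPM at day 14 (1.34 ± 0.25, adjusted p = 0.0233). RT1-Db1, a class II beta chain of the rat, stood at 16.3, 17.2 and 15.8 CPM in the controls and 44.0, 41.6 and 33.6 CPM at day 14 (1.27 ± 0.24, adjusted p = 0.0238), and RT1-Bb at 35.9, 32.0 and 37.8 CPM in the controls and 102, 82.1 and 70.6 CPM at day 14 (1.27 ± 0.29, adjusted p = 0.0448), with the RT1 family uncertain for its near-identical copies. The costimulatory ligand Cd80 was the other call, at 0.383, 0.729 and 0.536 CPM in the controls and 2.04, 1.31 and 4.53 CPM at day 14 (2.12 ± 0.42, adjusted p = 0.0311). It overlaps Timmdc1 on the opposite strand, which holds 83.5% of the counts of the pair, so its count is uncertain. The day-14 libraries lay closer together here than for the interferon genes, with list medians of 1.10, 0.82 and 0.90 over control. Of 32 T and NK cell genes 2 rose, none fell and 16 were higher by the unadjusted p (median 1.13). Ccr7, the receptor that guides lymphocytes and dendritic cells to lymph nodes, stood at 0.139, 0.255 and 0.214 CPM in the controls and 1.02, 0.756 and 1.27 CPM at day 14 (2.0 ± 0.42, adjusted p = 0.0377), and Cd8b at 0.0696, 0.109 and 0.0357 CPM in the controls and 0.437, 0.275 and 0.956 CPM at day 14 (2.15 ± 0.45, adjusted p = 0.0353). Il2rb, a chain of the interleukin-2 receptor, stood at 1.08, 1.46 and 1.79 CPM in the controls and 5.86, 3.82 and 4.57 CPM at day 14 and missed the threshold (adjusted p = 0.0509). Among 13 B and plasma cell genes 2 rose, namely the kinase Blk at 0.104, 0.0729 and 0.107 CPM in the controls and 0.655, 1.20 and 0.425 CPM at day 14 (2.34 ± 0.49, adjusted p = 0.0357) and Cd38 at 2.78, 2.84 and 2.89 CPM in the controls and 6.11, 11.8 and 13.5 CPM at day 14 (1.86 ± 0.34, adjusted p = 0.0233). Of the 15 genes of lymphoid organisation tested, 2 rose and 1 fell. The receptor Cxcr4 stood at 1.91, 2.55 and 2.57 CPM in the controls and 10.1, 7.49 and 4.89 CPM at day 14 (1.65 ± 0.27, adjusted p = 0.0170), while its ligand Cxcl12, made by stromal cells, stood at 186, 281 and 294 CPM in the controls and 99.2, 79.9 and 118 CPM at day 14 (−1.35 ± 0.22, adjusted p = 0.0166). Receptor and ligand thus moved in opposite directions, each with no overlap between the groups. With any 1 control left out, the calls of Cd74, RT1-Db1, RT1-Bb, Cd80, Ccr7, Cd8b, Blk, Cd38 and Cxcr4 were lost (adjusted p 0.0741 to 0.164). Cxcl12 lost its call without control replicate 2 or 3 (adjusted p up to 0.0848). Also lost were the calls of RT1-Bb (0.0856) and Ccr7 (0.0525) without day-14 replicate 1, of RT1-Bb (0.0716) and Blk (0.0736) without day-14 replicate 2, and of Cd74 (0.0542), RT1-Bb (0.0853), Cd80 (0.0784), Ccr7 (0.120), Cd8b (0.112) and Cd38 (0.0765) without day-14 replicate 3; parentheses give the adjusted p. The log2 fold change was 1.5 for Cd80 without day-14 replicate 3.

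In each of the lists of cytokines, complement and epithelial defence genes edgeR called 2 genes higher and none lower, where 1.45% of all genes tested were higher. DESeq2 called 13 of 39, 7 of 24 and 3 of 20 higher, with 1, 1 and 0 lower. Of 40 cytokines, chemokines and inflammatory enzymes 2 rose, none fell and 20 were higher by the unadjusted p (median 1.05). Without day-14 replicate 3 none was called by edgeR, 9 were higher by the unadjusted p and the median was 0.42. Hmox1, the haem-degrading enzyme haem oxygenase 1, stood at 14.0, 13.3 and 13.5 CPM in the controls and 26.3, 28.8 and 58.1 CPM at day 14 (1.47 ± 0.34, adjusted p = 0.0498). The chemokine Ccl22 stood at 0.278, 0.146 and 0.607 CPM in the controls and 7.24, 0.309 and 8.18 CPM at day 14 (3.68 ± 0.85, adjusted p = 0.0467), with replicate 2 inside the control range. Il6 was at 0, 0.0364 and 0 CPM in the controls and 0.0728, 0 and 1.59 CPM at day 14 and overlaps a gene with many more counts, so nothing can be read from it. Of 24 complement genes 2 rose. Complement C3 stood at 3.24, 2.55 and 2.47 CPM in the controls and 24.5, 6.46 and 37.6 CPM at day 14 (3.02 ± 0.69, adjusted p = 0.0462), and the receptor C3ar1 at 3.97, 5.21 and 4.72 CPM in the controls and 10.7, 12.7 and 23.4 CPM at day 14 (1.74 ± 0.28, adjusted p = 0.0166). C3 was lowest in replicate 2, and neither gene overlapped the controls. Of 24 epithelial defence genes Slpi, given above, and Aoc1 rose. Aoc1, a diamine oxidase that degrades histamine, stood at 0.139, 0.583 and 0.179 CPM in the controls and 4.19, 15 and 2.51 CPM at day 14 (4.31 ± 0.77, adjusted p = 0.0223). The calls of Hmox1, Ccl22, C3, C3ar1 and Aoc1 were lost whichever control was left out (adjusted p 0.0741 to 0.173). Among the day-14 libraries, leaving out 1 ended the calls of Ccl22 (0.0760) and C3 (0.0678) without day-14 replicate 1, of Hmox1 (0.0512) without day-14 replicate 2, and of Hmox1 (0.158), Ccl22 (0.14) and C3 (0.147) without day-14 replicate 3 (adjusted p in parentheses). Log2 fold changes moved to 3.21 for Aoc1 without day-14 replicate 2.

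Matrix genes were called in both directions. Of 22 fibrillar and network collagens 2 rose and none fell, with a median of −0.25. The 2 were Col4a1, at 395, 317 and 309.7 CPM in the controls and 539, 891 and 650.3 CPM at day 14 (1.03 ± 0.23, adjusted p = 0.0463), and Col4a2, at 238, 198 and 200.1 CPM in the controls and 338, 515 and 397 CPM at day 14 (0.98 ± 0.22, adjusted p = 0.0423), the paired chains of basement membrane collagen. These genes lie head to head and overlap in the annotation, so the split of reads between them is uncertain. The main fibrillar collagens were lower in level and were not called by edgeR over all groups. Col1a1 stood at 12347, 8249.8 and 10221 CPM in the controls and 3568, 4595 and 5959 CPM at day 14 (−1.13 ± 0.31, adjusted p = 0.0848) and Col3a1 at 10245, 8483 and 9780.3 CPM in the controls and 4192, 6186 and 6004 CPM at day 14 (−0.80 ± 0.27, adjusted p = 0.143). For both, every day-14 library was below every control. DESeq2 called both lower (adjusted p = 0.00583 and 0.0392), as did edgeR on the 2 groups alone (adjusted p = 0.0387 and 0.0497). Over the collagen list DESeq2 called 2 higher and 4 lower, and edgeR on the 2 groups alone 3 each way. In the deposited TPM values, which are per transcript length, Col1a1 averaged 3605 TPM in the controls and 1690.4 TPM at day 14. In the list of matrix glycoproteins and proteoglycans 3 of 28 rose (Cilp, Spp1 and Cthrc1) and 3 fell (Lum, Nid2 and Matn2). Cthrc1, a collagen triple helix repeat protein of activated fibroblasts, stood at 10.7, 7.36 and 10.0 CPM in the controls and 26.3, 50.1 and 41.6 CPM at day 14 (2.06 ± 0.44, adjusted p = 0.0377). Osteopontin (Spp1) stood at 0.139, 0.0729 and 0.214 CPM in the controls and 0.946, 6.09 and 2.59 CPM at day 14 (3.95 ± 0.77, adjusted p = 0.0288). Lum, the proteoglycan lumican that spaces collagen fibrils, stood at 457, 526 and 662 CPM in the controls and 236, 288 and 280.1 CPM at day 14 (−1.03 ± 0.19, adjusted p = 0.0233). Nid2, a basement membrane nidogen, stood at 55.9, 58.3 and 62.5 CPM in the controls and 31.5, 38.2 and 36.9 CPM at day 14 (−0.73 ± 0.15, adjusted p = 0.0371). No gene of the elastic fibre and crosslinking list was called by edgeR among 27 tested (3 higher and 5 lower by the unadjusted p), nor any of 23 metalloproteinases and inhibitors (7 higher and 1 lower), where DESeq2 called 3 and 5. Elastin (Eln) stood at 90.5, 166 and 149.96 CPM in the controls and 87.3, 392 and 286 CPM at day 14 (0.91 ± 0.53, adjusted p = 0.411), with replicate 1 below all controls and replicates 2 and 3 above them. Leaving out any 1 control ended the calls of Col4a1, Col4a2, Cthrc1, Spp1, Lum and Nid2 (adjusted p 0.0595 to 0.169). The call of Nid2 (0.0760) was also lost without day-14 replicate 1. Without day-14 replicate 2 the calls of Col4a1 (0.108), Col4a2 (0.0957), Cthrc1 (0.0738) and Nid2 (0.0532) were lost. Without day-14 replicate 3 those of Col4a1 (0.112), Col4a2 (0.107), Cthrc1 (0.107), Spp1 (0.0671), Lum (0.0735) and Nid2 (0.106) were lost, where parentheses give the adjusted p. The log2 fold change was 3.11 for Spp1 without day-14 replicate 2.

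Genes of the resting fibroblasts of the adventitia fell in 3 of 24 tested and rose in none, with a median of −0.31. They were Myoc and Pla2g2a, given above, and Sfrp2, a secreted antagonist of Wnt signalling, at 282, 353 and 302 CPM in the controls and 182, 106 and 137 CPM at day 14 (−1.14 ± 0.20, adjusted p = 0.0222). The list summed to 8112 to 9319 CPM in the controls and 4726 to 6169 CPM at day 14. Its median member stood −0.73, −0.086 and −0.090 from control in replicates 1, 2 and 3, so replicate 1 was the lowest. Without day-14 replicate 1 the median log2 fold change was −0.17, with 3 genes higher and 7 lower by the unadjusted p. DESeq2 called 1 gene of the list higher and 5 lower, and edgeR on the 2 groups alone 1 and 8. C7, a complement component made by such fibroblasts, stood at 1520.1, 1634 and 1764 CPM in the controls and 541, 973 and 738 CPM at day 14 and was not called (adjusted p = 0.0668). Wnt and Hedgehog genes gave 2 falls (0.995% of all genes) and no rise among 33 tested, the second being the ligand Wnt6 at 6.06, 5.76 and 3.57 CPM in the controls and 1.89, 2.34 and 0.921 CPM at day 14 (−1.54 ± 0.34, adjusted p = 0.0419). In the list of transforming growth factor beta, activin and bone morphogenetic protein genes 2 of 31 rose and 1 fell. Tgfb1, the ligand that activates fibroblasts, stood at 25.8, 26.4 and 25.9 CPM in the controls and 45.5, 40.2 and 53.0 CPM at day 14 (0.83 ± 0.12, adjusted p = 0.0150). Bmp4, a ligand that Grem1 binds, stood at 30.4, 29.1 and 31.3 CPM in the controls and 17.8, 21.4 and 21.1 CPM at day 14 (−0.59 ± 0.12, adjusted p = 0.0293). The antagonist thus rose while this ligand fell. In all 3 of these genes the groups did not overlap, as the naming rule required for Grem1. Sfrp2, Wnt6, Tgfb1 and Bmp4 were no longer called with 1 control fewer, whichever it was (adjusted p 0.0700 to 0.145). Without day-14 replicate 1 the calls of Wnt6 (0.0665) and Bmp4 (0.0608) were lost. Without day-14 replicate 3 those of Sfrp2 (0.0784), Wnt6 (0.116) and Bmp4 (0.0752) were lost (adjusted p in parentheses).

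Schwann cell and nerve genes that edgeR called over all groups had fallen, but other fits also called some higher. DESeq2 called 1 of 19 Schwann cell genes higher and 4 lower, and 2 of 13 nerve genes higher and 1 lower. Fitted on the 2 groups alone, edgeR called 0 of 18 Schwann cell genes higher and 6 lower, and 1 nerve gene higher and 2 lower. Of 19 Schwann cell and myelin genes tested 2 fell and none rose, and 7 were lower by the unadjusted p (7.97% of all genes tested), with a median of −0.28. Scn7a, a sodium channel of Schwann cells and sensory neurons, stood at 92.7, 106 and 111 CPM in the controls and 30.1, 34.3 and 45.6 CPM at day 14 (−1.49 ± 0.27, adjusted p = 0.0233). Cdh19, a cadherin of Schwann cell precursors, stood at 8.63, 12.4 and 10.6 CPM in the controls and 3.20, 3.78 and 5.31 CPM at day 14 (−1.35 ± 0.26, adjusted p = 0.0278). The transcription factor Sox10 stood at 5.81, 6.01 and 7.25 CPM in the controls and 2.18, 2.92 and 3.15 CPM at day 14 (adjusted p = 0.0851) and was not called although no day-14 library reached the controls. Stmn2, a neuronal growth-associated gene whose transcript is carried in axons, was the only 1 of 13 neuron and autonomic nerve genes called, at 9.61, 7.76 and 5.68 CPM in the controls and 3.28, 1.89 and 1.27 CPM at day 14 (−1.81 ± 0.42, adjusted p = 0.0490). Tubb3, a neuronal tubulin, went the other way in level, at 0.313, 0.692 and 0.750 CPM in the controls and 1.89, 3.85 and 5.38 CPM at day 14, and missed the threshold (adjusted p = 0.0517). Of 24 neurotrophic factors and receptors 1 rose and 4 fell, against 1.45% and 0.995% of all genes tested. Bdnf, brain-derived neurotrophic factor, stood at 0.209, 0.401 and 0.322 CPM in the controls and 3.53, 8.29 and 2.80 CPM at day 14 (3.70 ± 0.65, adjusted p = 0.0212). Its receptor Ntrk2 (chromosome 17, 5934651 to 6245778) stood at 9.75, 26.4 and 23.1 CPM in the controls and 3.35, 4.64 and 1.74 CPM at day 14 (−2.58 ± 0.55, adjusted p = 0.0377), with control replicate 1 the closest to the day-14 libraries. The other receptors that fell were Gfra1, for glial cell line-derived factor, at 31.4, 40.4 and 30.6 CPM in the controls and 22.3, 14.6 and 20.5 CPM at day 14 (−0.83 ± 0.16, adjusted p = 0.0278), Lifr, for leukaemia inhibitory factor, at 63.9, 59.7 and 75.2 CPM in the controls and 36.3, 31.2 and 42.8 CPM at day 14 (−0.85 ± 0.14, adjusted p = 0.0178), and Cntfr, for ciliary neurotrophic factor (−1.43 ± 0.32, adjusted p = 0.0419). With any 1 control left out, the calls of Scn7a, Cdh19, Stmn2, Bdnf, Ntrk2, Gfra1, Lifr and Cntfr were lost (adjusted p 0.0724 to 0.169). Also lost were the calls of Cdh19 (0.0555), Ntrk2 (0.0695) and Cntfr (0.0609) without day-14 replicate 1, of Scn7a (0.0501), Cdh19 (0.0611), Stmn2 (0.111) and Cntfr (0.0830) without day-14 replicate 2, and of Stmn2 (0.162), Ntrk2 (0.133), Gfra1 (0.0735) and Cntfr (0.151) without day-14 replicate 3; parentheses give the adjusted p. The log2 fold change was 3.09 for Bdnf without day-14 replicate 2.

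The contractile apparatus of the detrusor gave 1 call. Of 30 smooth muscle genes 1 rose and none fell (median −0.10). Myh11, the smooth muscle myosin heavy chain, stood at 11449, 9360.0 and 9459 CPM in the controls and 9364, 8016 and 8295 CPM at day 14 (−0.24 ± 0.31, adjusted p = 0.757), Acta2, smooth muscle actin, at 2163, 2168 and 2384 CPM in the controls and 2499.5, 3140.4 and 2430.4 CPM at day 14 (0.27 ± 0.22, adjusted p = 0.586), and desmin (Des) at 2432, 2282 and 2117 CPM in the controls and 2480.0, 3509 and 2709 CPM at day 14 (0.35 ± 0.25, adjusted p = 0.518). None was called, although for Acta2 and Des every day-14 library was above every control. The gene that rose was Itga8, an integrin chain that binds osteopontin and nephronectin, at 6.89, 7.22 and 9.68 CPM in the controls and 22.0, 82.2 and 57.9 CPM at day 14 (2.76 ± 0.55, adjusted p = 0.0308). Of 10 skeletal muscle genes tested 3 rose (1.45% of all genes), at levels far below those of smooth muscle actin. Acta1, skeletal actin, stood at 65.4, 72.5 and 73.3 CPM in the controls and 247, 459.6 and 158 CPM at day 14 (2.03 ± 0.44, adjusted p = 0.0404), and Myh2, a fast myosin, at 1.5, 0.182 and 0.50 CPM in the controls and 1.35, 16.5 and 12.3 CPM at day 14 (3.66 ± 0.81, adjusted p = 0.0426), where replicate 1 lay inside the control range. The other was Myh1, also a fast myosin, at 0.104, 0 and 0.0715 CPM in the controls and 0.218, 1.13 and 0.885 CPM at day 14 (2.66 ± 0.62, adjusted p = 0.0494). Ckm, the muscle creatine kinase, was lower in level at 46.1, 38.8 and 44.0 CPM in the controls and 26.7, 20 and 17.6 CPM at day 14 (adjusted p = 0.143), so the members of that list differed in direction. The median of the 10 was −0.53, that of all 15 listed genes with no filter 0.23, and that of the 10 without day-14 replicate 3 −0.24. The calls of Itga8, Acta1, Myh2 and Myh1 were lost whichever control was left out (adjusted p 0.0886 to 0.163). Among the day-14 libraries, leaving out 1 ended the calls of Itga8 (0.0588), Acta1 (0.0823), Myh2 (0.0844) and Myh1 (0.104) without day-14 replicate 2, and of Itga8 (0.0848), Myh2 (0.119) and Myh1 (0.136) without day-14 replicate 3 (adjusted p in parentheses).

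Among receptors of contraction and sensation 2 of 35 rose and 3 fell, against 1.45% and 0.995% of all genes tested. DESeq2 called 5 of 34 higher and 5 lower. Tacr2, the neurokinin receptor of the detrusor, stood at 103, 114 and 117 CPM in the controls and 58.3, 34.5 and 31.3 CPM at day 14 (−1.43 ± 0.32, adjusted p = 0.0419). Ptgfr, the receptor of prostaglandin F, stood at 3.55, 3.02 and 4.72 CPM in the controls and 1.24, 0.722 and 0.814 CPM at day 14 (−1.95 ± 0.37, adjusted p = 0.0263). Agtr1a, the type 1 angiotensin receptor, stood at 28.1, 23.9 and 28.4 CPM in the controls and 12.3, 14.1 and 13.0 CPM at day 14 (−1.03 ± 0.21, adjusted p = 0.0353). All 3 contractile receptors were lower in every day-14 library. Ednra, the endothelin receptor, stood at 11.8, 13.2 and 12.0 CPM in the controls and 22.7, 31.3 and 36.2 CPM at day 14 (1.28 ± 0.23, adjusted p = 0.0233), and the prostaglandin E receptor Ptger2 rose as well (1.80 ± 0.41, adjusted p = 0.0448). The muscarinic receptors, through which the parasympathetic nerves contract the bladder, were not called, with Chrm2 above the controls in every day-14 library. Chrm2 stood at 49.4, 54.0 and 51.9 CPM in the controls and 72.6, 70.7 and 67.3 CPM at day 14 (0.44 ± 0.25, adjusted p = 0.392) and Chrm3 at 15.2, 22.6 and 18.9 CPM in the controls and 27.1, 19.7 and 17.4 CPM at day 14 (0.18 ± 0.38, adjusted p = 0.864). The purinergic receptor P2rx1 (−0.21 ± 0.40, adjusted p = 0.845) and the relaxing beta adrenergic receptor Adrb3 (−1.02 ± 0.43, adjusted p = 0.245) were not called either, with Adrb3 below the controls in all 3 libraries at 3.86, 2.27 and 2.90 against 6.20, 6.78 and 5.57 CPM. Of 29 stretch-activated, TRP and potassium channel genes 2 fell. Kcnma1, the large-conductance potassium channel that restrains detrusor contraction, stood at 141, 169 and 132 CPM in the controls and 97.0, 70.3 and 75.1 CPM at day 14 (−0.87 ± 0.18, adjusted p = 0.0387). Abcc9, the regulatory subunit of the ATP-sensitive potassium channel and also a pericyte gene, stood at 196, 178 and 175 CPM in the controls and 106, 84.5 and 94.8 CPM at day 14 (−0.94 ± 0.18, adjusted p = 0.0255). The stretch channel Piezo2 stood at 16.8, 19.8 and 20.2 CPM in the controls and 24.1, 41.5 and 29.0 CPM at day 14 (0.73 ± 0.29, adjusted p = 0.208), and the gap junction gene Gja1 at 36.7, 40.6 and 31.2 CPM in the controls and 18.4, 44.7 and 44.2 CPM at day 14 (−0.02 ± 0.32, adjusted p = 0.988). Leaving out any 1 control ended the calls of Tacr2, Ptgfr, Agtr1a, Ednra, Ptger2, Kcnma1 and Abcc9 (adjusted p 0.0823 to 0.168). The call of Agtr1a (0.0695) was also lost without day-14 replicate 1. Without day-14 replicate 2 the calls of Tacr2 (0.0966), Ptgfr (0.0607), Agtr1a (0.0569), Kcnma1 (0.0892) and Abcc9 (0.0588) were lost. Without day-14 replicate 3 those of Tacr2 (0.151), Ptgfr (0.101), Agtr1a (0.119), Ednra (0.0752), Ptger2 (0.145), Kcnma1 (0.136) and Abcc9 (0.0913) were lost, where parentheses give the adjusted p.

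In the urothelium the named uroplakins were not called and the keratin of the umbrella cells fell. Upk2 stood at 925, 1051 and 964 CPM in the controls and 795, 1014 and 682 CPM at day 14 (−0.24 ± 0.18, adjusted p = 0.543) and Upk3a, another uroplakin, at 1246, 1361 and 1182 CPM in the controls and 996, 1082 and 995 CPM at day 14 (−0.30 ± 0.15, adjusted p = 0.332), with Upk3a below the controls in every day-14 library. Krt20, the keratin of the umbrella cells at the surface, stood at 78.9, 63.2 and 60.2 CPM in the controls and 21.3, 33.4 and 26.8 CPM at day 14 (−1.31 ± 0.29, adjusted p = 0.0429). Klf5, a transcription factor of epithelial proliferation, stood at 227, 218 and 201 CPM in the controls and 345, 304 and 373 CPM at day 14 (0.66 ± 0.14, adjusted p = 0.0353). These were edgeR's only calls among 30 urothelial genes, whose median was 0.04, while DESeq2 called 4 higher and 1 lower. Neither Krt20 nor Klf5 overlapped the controls. Krt5, the keratin of basal cells, stood at 90.7, 161 and 146 CPM in the controls and 49.3, 188 and 159 CPM at day 14 (adjusted p = 0.998), with replicate 1 low and the other 2 high. No tight junction gene was called by edgeR among 16 tested (DESeq2 called 1). By the unadjusted p, 6 were higher (9.71% of all genes). The largest library value was that of Cldn4 in replicate 3, at 262, 222 and 203 CPM in the controls and 395, 249 and 939 CPM at day 14 (adjusted p = 0.118). Mesothelial genes, which mark the outer lining of the bladder, gave no call among 11 tested by edgeR or DESeq2, and 0 had an unadjusted p under 0.05. Their median member stood −1.78, 0.24 and 0.11 from control in replicates 1, 2 and 3, so replicate 1 was the lowest. Muc16, a mucin of this lining, stood at 225, 337 and 403 CPM in the controls and 44.3, 298 and 237 CPM at day 14. The part of this lining in the other differences of that library was not tested. Krt20 and Klf5 were no longer called with 1 control fewer, whichever it was (adjusted p 0.105 to 0.150). Without day-14 replicate 1 the calls of Krt20 (0.0899) and Klf5 (0.0549) were lost. The call of Krt20 (0.0501) was lost without day-14 replicate 2. Without day-14 replicate 3 those of Krt20 (0.136) and Klf5 (0.119) were lost (adjusted p in parentheses).

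Metabolic and stress lists gave few calls. Of 29 xenobiotic and retinoid enzymes edgeR called 2 lower (Aldh3a1 and Ces1f) and none higher, with a median of −0.48. DESeq2 called 4 lower and 2 higher, and without day-14 replicate 1 edgeR called 2 each way with a median of −0.26. Cox6c, a subunit of cytochrome oxidase, was the only call among 28 genes of mitochondrial respiration, at 71.1, 70.6 and 77.8 CPM in the controls and 50.5, 47.5 and 50.0 CPM at day 14 (−0.57 ± 0.08, adjusted p = 0.0135). Fabp4, the fatty acid binding protein of adipocytes and capillaries, was the only call among 26 adipocyte and fatty acid genes, at 298, 307 and 304 CPM in the controls and 131, 179 and 179.9 CPM at day 14 (−0.89 ± 0.15, adjusted p = 0.0204). Both fell with no overlap of the groups. Of 25 immediate early genes 2 rose, Fosl1 at 0.0348, 0.219 and 0.0715 CPM in the controls and 1.53, 0.722 and 11.2 CPM at day 14 (4.68 ± 1.06, adjusted p = 0.0448) and Ier5 at 16.4, 16.1 and 17.3 CPM in the controls and 28.3, 26.6 and 47.6 CPM at day 14 (1.04 ± 0.19, adjusted p = 0.0230). Fosb stood at 5.99, 9.40 and 6.18 CPM in the controls and 69.5, 18.0 and 97.2 CPM at day 14 and just missed the threshold (adjusted p = 0.0545). Sterol synthesis genes gave no call by edgeR among 21 (DESeq2 called 1), with 3 higher and 1 lower by the unadjusted p, and differed between the day-14 libraries. Their median member stood 0.30, −0.43 and 1.47 from control, and Hmgcs1, an early enzyme of the pathway, at 128, 129.8 and 120.0 CPM in the controls and 224, 93.7 and 622 CPM at day 14. By the unadjusted p, 5 of 24 glycolysis and hypoxia genes, 4 of 23 genes of the endoplasmic reticulum stress list, 2 of 19 clock genes and 6 of 20 endothelial genes were higher, with 0, 1, 4 and 0 lower. None of these was called by edgeR, and DESeq2 called 5, 2, 2 and 3 genes of these lists. Over all genes tested, 9.71% were higher and 7.97% lower by the unadjusted p. With any 1 control left out, the calls of Fabp4, Fosl1 and Ier5 were lost (adjusted p 0.0743 to 0.169). Cox6c lost its call without control replicate 2 or 3 (adjusted p up to 0.0727). Also lost were the calls of Fosl1 (0.136) without day-14 replicate 3; parentheses give the adjusted p. The log2 fold change was 2.76 for Fosl1 without day-14 replicate 3.

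Cell cycle genes were high at day 7 and gave no call on day 14 against control. None of 36 tested passed by edgeR or DESeq2 (0 higher and 2 lower by the unadjusted p), with a median of −0.10. Mki67, the proliferation marker, stood at 17.2, 9.22 and 7.32 CPM in the controls and 14.2, 6.98 and 12.5 CPM at day 14 and at 151, 230.2 and 225 CPM on day 7. The day-14 libraries lay within the control range or below it, and far under every day-7 library (day 14 minus day 7: −4.17 ± 0.48, adjusted p = 0.000350). From day 7 to day 14, 3457 genes differed (19.5%), 1343 higher (7.59%) and 2114 lower (12%). All 36 cell cycle genes fell, with a median of −3.54, as did 19 of 22 collagens (−1.70), 20 of 28 matrix glycoproteins and proteoglycans (−1.72), 20 of 27 elastic fibre genes (−1.23) and 14 of 20 endothelial genes (−1.07). No gene of these 5 lists was called higher at day 14 than at day 7 by edgeR, and 0 were higher by the unadjusted p. Of the leukocyte lists, 9 of 24 macrophage genes fell (−0.71), and of 19 neutrophil genes 1 fell (0.62).

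The largest falls from day 7 to day 14 under the naming rule began with Tnn, the matrix glycoprotein tenascin-N, at 20.3, 248 and 159 CPM on day 7 and 0.328, 0.447 and 0.0708 CPM on day 14 (−8.66 ± 0.90, adjusted p = 0.000236). Slc4a1, the anion exchanger of red cells, went from 5.94, 27.3 and 299 to 0.801, 1.86 and 0.460 CPM (−6.64 ± 1.37, adjusted p = 0.00719). Alox15, a lipoxygenase, went from 8.84, 105 and 1001 to 3.86, 8.35 and 3.86 CPM (−6.10 ± 1.30, adjusted p = 0.00843). Neither of the last 2 was called against control at day 14, and day-7 replicate 3 was far above the other 2 for both. Trh, the precursor of thyrotropin-releasing hormone, and the protease-like gene Prss35 fell, with log2 fold changes of −5.88 and −5.27 (adjusted p = 0.00163 and 0.00231). The largest rises were headed by Cyp1a1, a target of the aryl hydrocarbon receptor, at 0.733, 0.209 and 0.217 CPM on day 7, 7.21, 26.1 and 8.14 CPM on day 14 and 84.9, 90.4 and 19.2 CPM in the controls (4.94 ± 1.07, adjusted p = 0.00903). Day 14 was still below 2 of the 3 controls, and control replicate 3 lay within the day-14 range. Mmp13, a collagenase, stood at 0.917, 1.04 and 0.905 CPM on day 7 and 10.5, 2.72 and 30.8 CPM on day 14 (3.85 ± 1.05, adjusted p = 0.0255). Mamdc2, Kcnf1 and the Hedgehog ligand Ihh were higher by 2.72, 2.63 and 2.51 (adjusted p = 0.00851, 0.00547 and 0.00389). Of the genes that led the comparison with control, Grem1 was lower at day 14 than at day 7 (−1.62 ± 0.49, adjusted p = 0.0375), as were Cilp (−3.34 ± 0.83, adjusted p = 0.0172) and Ntrk2 (−2.50 ± 0.55, adjusted p = 0.00922). Igfbp3 and Aldh3a1 were higher than at day 7 (0.94 ± 0.26, adjusted p = 0.0270, and 1.67 ± 0.39, adjusted p = 0.0126), while Krt20 was not called (0.01 ± 0.29, adjusted p = 0.987).

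**Figure D4:**
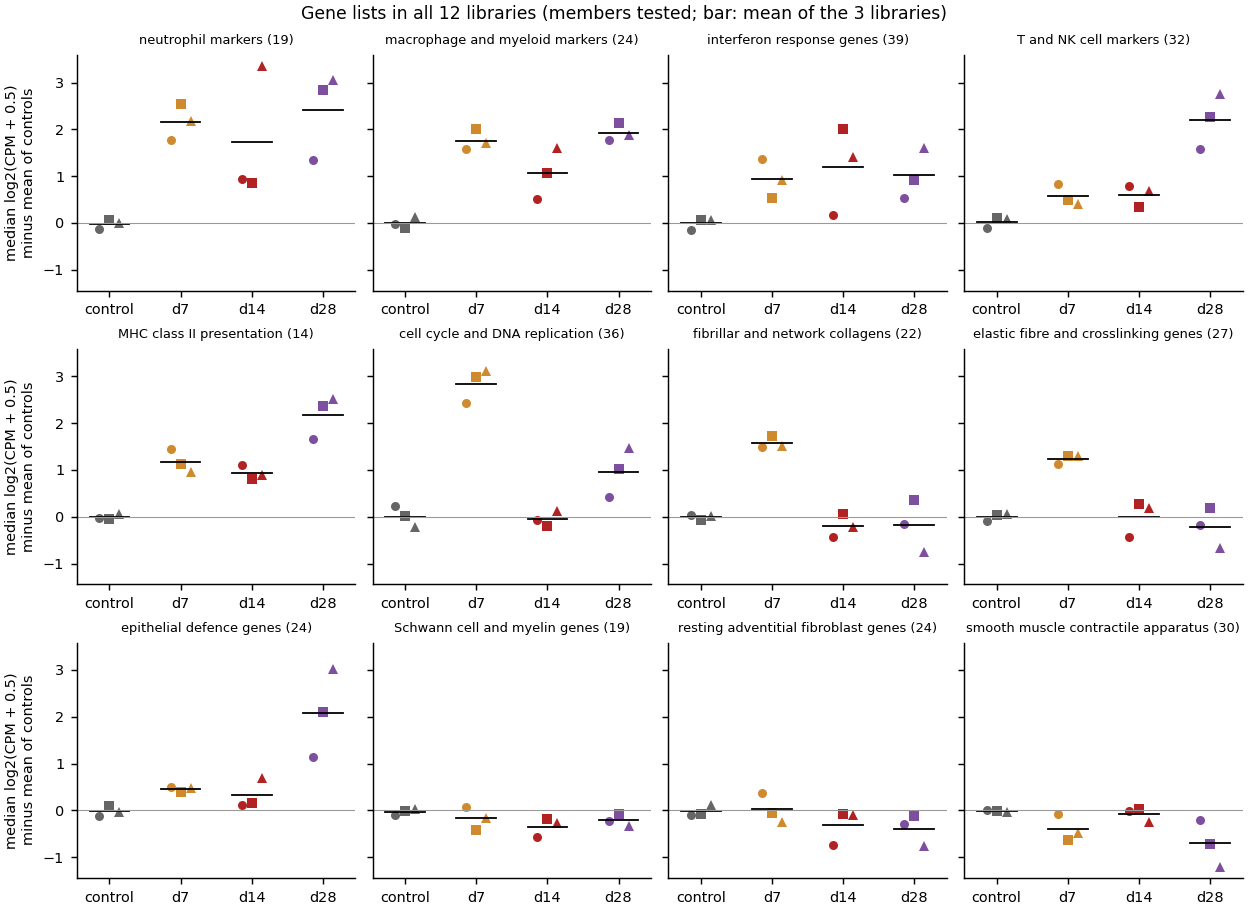
Each panel shows 1 gene list in all 12 libraries as the median over its tested genes of log2(CPM + 0.5) minus the mean of the 3 controls, with bars for the group means and circles, squares and triangles for replicates 1, 2 and 3. Cell cycle, collagen and elastic fibre genes are highest in the day-7 libraries, while T cell, class II and epithelial defence genes are highest at day 28.

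From day 14 to day 28, 768 genes differed (4.34%), 553 higher (3.13%) and 215 lower (1.22%). T and NK cell genes rose in 20 of 32 tested (1.93), class II genes in 8 of 14 (1.32), cell cycle genes in 13 of 36 (1.48) and macrophage genes in 6 of 24 (0.84), and none of their genes fell. Krt20 went from 21.3, 33.4 and 26.8 CPM on day 14 to 0.867, 1.73 and 0.835 CPM on day 28 (−4.49 ± 0.35, adjusted p = 0.000587). The day-28 libraries were all below the day-14 libraries. Muc4, a membrane mucin, went from 0.400, 0.206 and 0.779 to 1.67, 19.2 and 1089 CPM (9.45 ± 2.02, adjusted p = 0.0272), and Ly6al from 0.255, 0.447 and 1.38 to 307, 90.1 and 711 CPM (8.92 ± 0.86, adjusted p = 0.000905). The mucin Muc20, the oxidase Duox2 and the pantetheinase Vnn3 were higher by 6.09, 5.66 and 5.22 (adjusted p = 0.00848, 0.00411 and 0.00168). None of these 5 was called against control at day 14, with adjusted p of 0.956, 0.667, 0.954, 0.383 and 0.630. Fosb, at 69.5, 18.0 and 97.2 CPM on day 14, stood at 5.67, 4.5 and 3.76 CPM on day 28 (−3.71 ± 0.77, adjusted p = 0.0253). Kcnb2, Scube2 and Cntnap2 fell, with log2 fold changes of −3.36, −3.14 and −2.74 (adjusted p = 0.00259, 0.00168 and 0.00180). Fitted without the other groups this comparison had 42 calls, and with 1 library left out 261 to 1120. Mpeg1, Laptm5, Itga4 and Unc5c rose from day 14 to day 28, by 0.91, 1.34, 0.88 and 0.86 on the log2 scale (adjusted p = 0.00996, 0.000587, 0.0256 and 0.00925), and Unc5c then stood at 18.2, 14.9 and 15.3 CPM.

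Non-coding transcripts were tested in a separate deposited table that lists isoforms. Of 3896 tested 84 were called (2.16%), 51 higher (1.31%) and 33 lower (0.847%), and 549 had an unadjusted p under 0.05 (14.1%). Reads can be shared between isoforms there, so these are not independent of one another. The lncRNA LOC103691468 rose in 2 transcripts, of which one stood at 0.209, 0.146 and 0.286 CPM in the controls and 1.13, 2.79 and 3.93 CPM at day 14 (3.24 ± 0.46, adjusted p = 0.00727). LOC102547940 stood at 1.43, 1.46 and 1.14 CPM in the controls and 4.51, 10.7 and 6.59 CPM at day 14 (2.38 ± 0.46, adjusted p = 0.0168). In both every day-14 library was above every control, as the naming rule requires, and replicate 1 was the lowest day-14 library. Non-coding isoforms of protein-coding genes that rose were those of Lilrb4 (3.45 ± 0.61, adjusted p = 0.0135) and of the interferon-induced gene Herc6 (2.48 ± 0.60, adjusted p = 0.0482). LOC102548900 fell in 2 transcripts, one at 1.95, 1.97 and 3.00 CPM in the controls and 0.218, 0.241 and 0.212 CPM at day 14 (−3.02 ± 0.55, adjusted p = 0.0157). The processed transcripts of ENSRNOG00000060407.2 fell as well, one standing at 1.74, 3.64 and 3.68 CPM in the controls and 0.546, 0.206 and 0.390 CPM at day 14 (−2.78 ± 0.41, adjusted p = 0.00727), as did an isoform of Mdga2, a neural adhesion gene (−2.35 ± 0.50, adjusted p = 0.0269). The authors' deposited table for day 14 lists 4371 transcripts and marks 155 as different, 66 higher and 89 lower. Of these, 144 were tested here and 63 were called. The smallest absolute log2 fold change marked there was 1.001, while calls here had no cut on the change, so the thresholds differ. In that table the log2 fold changes of the LOC103691468 and LOC102548900 transcripts whose levels are given here are 3.72 and −3.29. The lncRNA H19 stood at 1.46, 5.03 and 3.22 CPM in the controls and 4.91, 7.74 and 10.2 CPM at day 14 in the gene table (1.22 ± 0.44, adjusted p = 0.168), is uncertain because it overlaps a gene with more counts, and was not called. Meg3, Neat1 and Malat1 were not tested under those names. Without control replicate 2 no non-coding transcript was called by edgeR (457 had an unadjusted p under 0.05), and DESeq2 called 137 on all libraries.

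**Figure D5:**
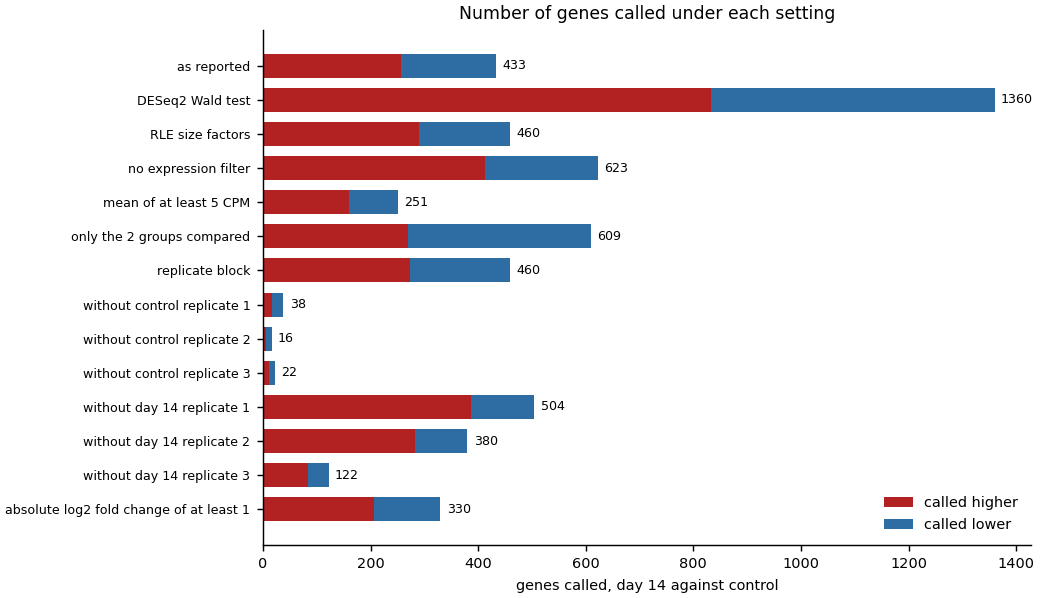
Bars give the number of genes called for day 14 against control under each setting, red for higher and blue for lower, with the total at the end of the bar. Leaving out any control reduced the 433 calls to between 16 and 38, leaving out day-14 replicate 3 to 122, and DESeq2 called 1360.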

How the data were processed

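Total RNA of whole rat bladder was sequenced in 12 libraries, depleted of ribosomal RNA, as single 50-base reads, per the labels' protocols. Tools named in the submitters' processing notes, without roles, are HISAT2 2.1.0, HTSeq 0.11.2 and bcl2fastq, with rn6 as build; the strand setting was not given in the sources used here. The authors deposited raw counts and TPM (scaled for gene length) per gene, raw counts per non-coding transcript, and their own log2 fold changes with p-values and q-values. Total counts per library were 26275314 to 30747936, and no per-sample column lacked a sample (0). The raw counts of all 12 libraries were fitted here with edgeR 4.0.16 in R 4.3.3 (filterByExpr, TMM, glmQLFit, glmQLFTest, prior count 2, no covariate), with Benjamini-Hochberg adjustment and a threshold of 0.05. Fold changes carry standard errors from that fit. List deviations use log2(CPM + 0.5), and the deposited TPM were used for a single level. The test was also run on counts simulated with the spread that edgeR had fitted, which cannot show that its model suits these data. There it called 33 and 49 of 50 genes raised 2-fold and 4-fold, 37 and 50 of 50 lowered as much, and 6 unchanged genes.

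Groups came from the titles. Alternatives were DESeq2 1.42.0, other size factors, other filters, a fit of the 2 groups alone, a replicate block and each library left out. Genes were named by rule: called genes with a symbol and no overlap of the groups, averaging 5 CPM or more and changed by 1 or more on the log2 scale, taking the 10 largest rises, the 10 largest falls and the 10 smallest p (5 each way between days, and 5 transcripts each way with a mean of at least 1 CPM). Up to 4 members with the smallest p per list and a short set of bladder genes were added. Some genes that these rules name are not reported here. Further genes were named after their values had been seen. The members and the 43 lists were chosen with earlier results of these data known. Promoters came from the RefSeq table (GRCr8), matched by symbol.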

Additional observations from a re-analysis of the deposited data

Results flagged for a closer look

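Named genes that differed between days by at least 2.5 on the log2 scale with an adjusted p under 0.05 in edgeR's test of the difference itself are given here. From day 7 to day 14 the red cell genes fell, with Hba-a1 at −5.08, Hba2 at −4.71, Hbb at −4.67 and Slc4a1 at −6.64. Day-7 replicate 3 stood apart for them, since the erythroid list summed to 1677, 4012 and 32867 CPM in the day-7 libraries and 580.0, 783 and 356 CPM in the day-14 libraries. In the same interval the matrix genes Tnn (−8.66), Ltbp2 (−4.05), Cilp (−3.34), Eln (−3.30), Spp1 (−3.07) and Cthrc1 (−2.64) fell. So did the cell cycle genes Mki67 (−4.17), Birc5 (−3.64), Tk1 (−3.03) and E2f1 (−2.57). Other falls were those of Alox15 (−6.10), Trh (−5.88), Prss35 (−5.27), H19 (−3.37), Piezo2 (−2.61) and Ntrk2 (−2.50). Rises came from Cyp1a1 (4.94), Mmp13 (3.85), Mamdc2 (2.72), Kcnf1 (2.63) and Ihh (2.51).

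From day 14 to day 28 the epithelial genes Muc4 (9.45), Muc20 (6.09), Duox2 (5.66) and Vnn3 (5.22) rose, as did Ly6al (8.92), complement C3 (3.45) and Foxp3 (3.55), whose count is uncertain because it overlaps Ccdc22. Krt20 (−4.49), Fosb (−3.71), Kcnb2 (−3.36), Scube2 (−3.14) and Cntnap2 (−2.74) fell. With 3 libraries a group, single libraries could not be tested as outliers.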

How the results depend on the processing

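With 1 library left out, 16 to 504 genes were called for day 14 against control. The 433 genes called with all libraries kept their direction and an unadjusted p under 0.05 in each of these fits. They had been chosen in a fit that held the same libraries, so this is no separate check. DESeq2 called 1360 genes, all 433 among them, and a mean of at least 5 CPM left 251. The labels number replicates in each group, but same-numbered libraries did not deviate together (r of 0.0359, −0.00817 and 0.0115), and the replicate block gave 460 calls, 338 of the 433 among them. It gave 3662 and 827 calls between days 7 and 14 and days 14 and 28, and 96 for transcripts. For day 14 against day 7, the 2 groups alone gave 2195 calls, a log2 fold change of at least 1 gave 1450, and leaving out 1 library gave 1959 to 3431. For day 28 against day 14, DESeq2 called 1647, the 2 groups alone 42, a log2 fold change of at least 1 left 469, and leaving out 1 library gave 261 to 1120. For non-coding transcripts, DESeq2 called 137, no filter 232, a mean of at least 5 CPM 36, and leaving out 1 library 0 to 70. The cause of these moves was not tested.

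None of the genes that changed sign was called. With 1 library left out, log2 fold changes ranged from −0.11 to 0.72 for Muc4, −1.13 to 0.33 for Muc20, −0.036 to 0.72 for Krt19, −0.34 to 0.79 for Pgr, −0.084 to 0.53 for Krt10, −0.019 to 0.33 for Chrm3, −0.34 to 0.40 for Krt5, −0.23 to 0.43 for Mki67 and −0.21 to 0.30 for Gja1. Krt5 was also positive with DESeq2 (0.0059), RLE size factors (0.0061) and no expression filter (0.00027). Mki67 was also positive with DESeq2 (0.0060) and RLE size factors (0.0047).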

Other observations

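Called genes outside the lists, chosen here after their values had been seen, held further leukocyte genes, with log2 fold changes in parentheses. They were the integrin chains Itgb2 (1.87) and Itgax (2.28), the oxidase chain Cybb (1.25) and the cytokine receptor chain Csf2rb (2.23). Antiviral genes among them were Ddx60 (2.42), Zbp1 (1.87) and Samhd1 (1.73). Fallen genes, also picked singly, included Olig1 (−2.04 ± 0.46, adjusted p = 0.0448), Lgi4 (−1.15 ± 0.24, adjusted p = 0.0371), Cntn1 (−1.22 ± 0.20, adjusted p = 0.0173), Drp2 (−1.18 ± 0.16, adjusted p = 0.00804) and Cntnap1 (−0.94 ± 0.19, adjusted p = 0.0304), with adjusted p from edgeR. No enrichment was tested. Each of the risen and fallen genes given here, and Lgr5 below, lost its call in at least 1 fit with a library left out. Lgr5, a receptor of Wnt-responsive cells, stood at 10.3, 11.5 and 8.97 CPM in the controls and 3.53, 4.92 and 1.77 CPM at day 14 (−1.57 ± 0.35, adjusted p = 0.0426).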
